A study of Mus musculus with 7 samples.

Results

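The Iroquois genes are the 6 mouse genes Irx1 to Irx6, which encode homeodomain transcription factors. They were chosen by symbol and all 6 had a row among the 23284 gene rows of each count file. The family was put forward with the mutant-to-wild-type contrast of these libraries in view, so their counts, levels and fold changes between genotypes are given as a description with no test. RNA was sequenced from atrioventricular canals, the constriction between atrium and ventricle of the embryonic heart tube, hand-dissected from outbred NMRI mouse embryos of 18 to 23 somites. The stage in the labels is slightly earlier than the day 9.5 in the sample titles. The mutant group was Hand2 d/d, called null here, in which the whole coding part of Hand2 had been deleted in the germline by Cre, so that every tissue of the embryo lacks it. The other group was wild type, and the labels name no further allele or agent in either. For each library 4 canals were pooled, with somite stages and sex ratios balanced between pools, and there were 4 null libraries (replicates 1 to 4) and 3 wild-type libraries (replicates 2 to 4), 1 wild-type pool having been set aside for RNA quality. P-values therefore measure the spread between pools.

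Iroquois factors belong to the TALE class of homeodomain proteins, named for extra residues in a loop of the homeodomain, and they carry a short conserved motif called the Iro box. In mouse the genes lie in 2 clusters of 3. Irx1, Irx2 and Irx4 form the IrxA cluster on chromosome 13, and Irx3, Irx5 and Irx6 form the IrxB cluster on chromosome 8. In the heart, Irx4 is known as a marker and regulator of ventricular muscle, and earlier work placed its expression downstream of Nkx2-5 and HAND2. Irx3 acts in the ventricular conduction system, Irx5 sets the gradient of a potassium channel across the ventricular wall, and Irx1 and Irx2 are known from the ventricular septum.

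The homeobox is a stretch that all members share, and likeness between members limits how well reads of 50 nt can be assigned to one of them. The coding stretch for the third, DNA-contacting helix of the homeodomain is shown for each gene, 5′ to 3′ from GENCODE M21 transcripts (GRCm38), with capitals at the bases that differ from Irx4.
Irx4: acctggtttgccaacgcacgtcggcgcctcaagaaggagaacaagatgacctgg
Irx1: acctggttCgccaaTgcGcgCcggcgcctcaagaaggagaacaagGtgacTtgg
Irx2: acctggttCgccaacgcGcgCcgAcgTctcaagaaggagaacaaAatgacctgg
Irx3: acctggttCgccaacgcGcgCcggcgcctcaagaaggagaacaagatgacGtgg
Irx5: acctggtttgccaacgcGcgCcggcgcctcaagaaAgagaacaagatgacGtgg
Irx6: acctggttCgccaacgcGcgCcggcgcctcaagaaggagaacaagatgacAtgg
Over these 54 bases the other members differed from Irx4 at 4 to 6 positions. Over the 189 bases of the whole homeobox, nucleotide identity ranged from 83.1% to 91.0% among the 15 pairs and was highest between Irx2 and Irx5. Stretches as long as a read that were identical in a pair of members were found in 3 of the 15 pairs, namely Irx3 with Irx6, Irx2 with Irx5, and Irx3 with Irx5. Of all 50-nt words in a member's transcripts, the share that recurred in transcripts of any other gene was 0% for Irx1 and Irx4, 0.58% for Irx2, 0.552% for Irx5, 3.53% for Irx6 and 4.16% for Irx3. Reads from words shared between members align to several places, and the files list reads without a unique alignment outside the gene rows. Between Irx3 and Irx6 there were 39 such words, between Irx2 and Irx5 16, and between Irx3 and Irx5 1. Where in the transcripts these words lie was not examined. The shares of Irx3 and Irx6 also include words found, on either strand, in transcripts of Irx3os and Gm45505 respectively. The libraries carry no strand information, so reads from a place that both genes of such a pair cover cannot be told apart. The annotation behind the counts is not given, so whether these reads were left out is not known.

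Irx4 was the most abundant member in each library. Over the length of its exons it was at 13.9 ± 1.18 CPM per kilobase in wild type (SD, n = 3) and 8.56 ± 0.397 in the null (SD, n = 4), where CPM is a gene's count relative to all reads in genes of its library, in the usual unit. Irx2 followed with 2.93 ± 1.598 CPM per kilobase in wild type and 0.942 ± 0.276 in the null. Next came Irx5, at 1.74 ± 0.755 CPM per kilobase in wild type and 0.693 ± 0.170 in the null. Irx1 and Irx3 lay close together in wild type, at 0.978 ± 0.681 and 0.939 ± 0.429 CPM per kilobase, and their order differed between libraries. Irx6 was the scarcest member in wild type at 0.140 ± 0.112 CPM per kilobase, against 0.293 ± 0.104 in the null, where Irx1 had a mean of 0.293 ± 0.0531. In wild type the ranges of neighbours in this order overlapped, except between Irx4 and Irx2 and between Irx3 and Irx6. In the null they overlapped except between Irx4 and Irx2 and between Irx3 and Irx1.

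In the edgeR fit, 6.24% of the 14290 genes tested were called in either direction. By the same fit 3 of the 6 members (Irx2, Irx4 and Irx5) were called lower in the null, at a Benjamini-Hochberg adjusted p under 0.05. The same was true of 2.13% of the genes tested. No member was called higher, against 4.11% of genes, and all 6 passed the filter on low counts. In 1 of the 6, Irx4, every null library lay below every wild-type library, as did 10.3% of all genes tested; 2.09% of genes did so and were also called lower, as Irx4 was. Nothing is read from these shares, since the contrast was known when the members were chosen. Fewer cells that carry a transcript and less transcript per cell cannot be told apart in pooled tissue.

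**Figure D1:**
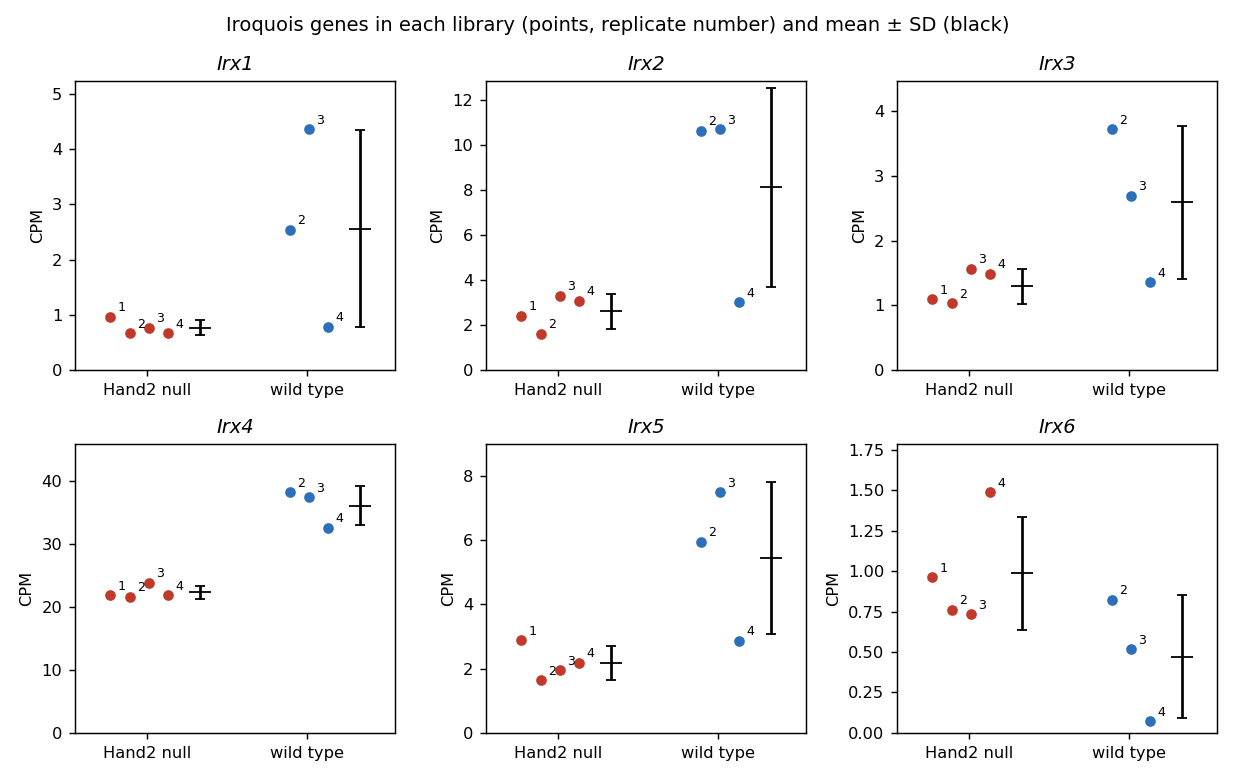
CPM (linear axis from 0) of each Iroquois gene in the 4 Hand2 null libraries (red) and the 3 wild-type libraries (blue). Points carry the replicate number and black bars give the group mean ± SD. The groups are apart for Irx4, while wild-type replicate 4 sits at the null level for Irx1, Irx2, Irx3 and Irx5 and is lowest for Irx6.

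Irx4, the ventricular member, had 816, 711, 684 and 853 reads in null replicates 1 to 4, and 1718, 1082 and 910 reads in wild-type replicates 2 to 4. Scaled to library size these were 21.9, 21.6, 23.9 and 21.9 CPM in the null against 38.3, 37.4 and 32.6 CPM in wild type. The 4 null pools lay close together, and the lowest wild-type pool was above all of them. The log2 fold change was -0.71 (SE 0.141), so Irx4 was 1.64-fold lower in the null by the fit. With wild-type replicate 2 left out, or replicate 3, the value was -0.67 and Irx4 was no longer called. It was also not called when null replicate 2 was left out along with wild-type replicate 4, at -0.75.

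Irx2, the neighbour of Irx4 in the IrxA cluster, stood at 2.41, 1.61, 3.31 and 3.08 CPM in null replicates 1 to 4 and at 10.6, 10.7 and 3.01 CPM in wild-type replicates 2 to 4. Wild-type replicates 2 and 3 were high and nearly equal, and wild-type replicate 4 fell within the null range. The log2 fold change was -1.66 (SE 0.404), and it was -2.06 without wild-type replicate 4. Leaving out null replicate 1 (-1.64) or 2 (-1.47) ended the Irx2 call, and so did leaving out wild-type replicate 2 (-1.42) or 3 (-1.39).

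Irx1, at the other end of the IrxA cluster, had 0.964, 0.670, 0.767 and 0.668 CPM in null replicates 1 to 4, and 2.54, 4.36 and 0.788 CPM in wild-type replicates 2 to 4. Again replicates 2 and 3 of the wild type were high and replicate 4 was inside the null range, from 22 reads. The log2 fold change of -1.76 (SE 0.491) was the largest in size among the 6 members and did not reach a call. Without wild-type replicate 3 it was -1.13. Without wild-type replicate 4 it was -2.19 and Irx1 was called lower.

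Irx5, of the IrxB cluster, measured 2.89, 1.64, 1.95 and 2.18 CPM in null replicates 1 to 4 and 5.95, 7.51 and 2.87 CPM in wild-type replicates 2 to 4. The groups touched at null replicate 1 and wild-type replicate 4, which were nearly equal. Its log2 fold change was -1.34 (SE 0.342), and -1.65 without wild-type replicate 4. The call was lost without null replicate 1 (-1.54), null replicate 2 (-1.21) or null replicate 4 (-1.34), and likewise when wild-type replicate 2 (-1.28) or 3 (-1.03) was left out.

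Irx3, the conduction-system member at the start of the IrxB cluster, gave 1.10, 1.03, 1.57 and 1.49 CPM in null replicates 1 to 4, and 3.72, 2.70 and 1.36 CPM in wild-type replicates 2 to 4. Wild-type replicate 4 lay in the middle of the null values. The log2 fold change was -1.02 (SE 0.375) and was not called with all libraries or with any 1 left out. Dropping wild-type replicate 2 gave -0.67, and dropping wild-type replicate 4 gave -1.34.

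Irx6, best known from the retina, was the one member with a fold change above 0. It had 0.964, 0.761, 0.733 and 1.49 CPM in null replicates 1 to 4, from 21 to 58 reads, and 0.825, 0.519 and 0.0717 CPM in wild-type replicates 2 to 4. Wild-type replicate 4 held 2 reads, under the floor of 3 reads (0.1075 CPM there) that counting error allows for a count of 0, and wild-type replicate 2 was inside the null range. The log2 fold change of 1.00 (SE 0.608) was not called under any setting that tested it. Its lowest value, 0.52, came with wild-type replicate 4 left out, and its highest, 1.69, with wild-type replicate 2 left out.

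**Figure D2:**
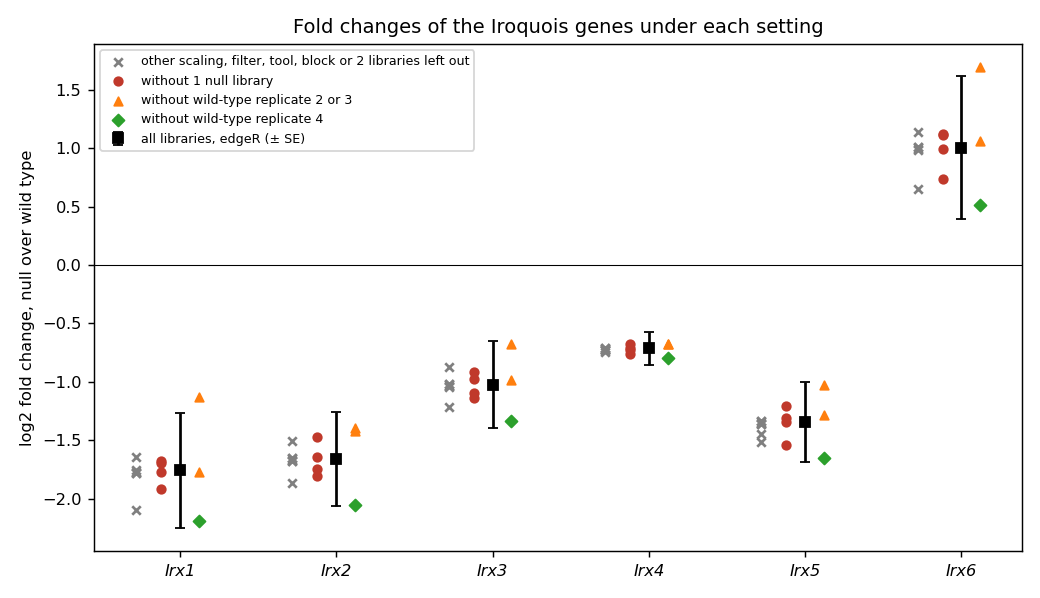
Log2 fold change (null over wild type) of each Iroquois gene with all 7 libraries (black square, ± SE), with 1 library left out, and under other scalings, filters, DESeq2, the replicate block and 2 libraries left out (grey crosses). Each gene keeps its sign at each setting drawn; Irx4 spans -0.79 to -0.67, whereas Irx1 spans -2.19 to -1.13 and is farthest from 0 without wild-type replicate 4.

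In wild-type replicate 4 Irx4 and the other members went apart. For 4 of the 6 members (Irx1, Irx2, Irx3 and Irx5), wild-type replicates 2 and 3 were above every null library and replicate 4 was not, a pattern held by 6.18% of all genes tested. Only 6 of the 14290 genes (0.042%) were called lower although their groups overlapped in CPM, and Irx2 and Irx5 were among them. The 5 members other than Irx4 summed to 23.7 and 25.8 CPM in wild-type replicates 2 and 3 and to 8.10 CPM in replicate 4, with 5.72 to 8.91 CPM in the null. Irx4 made up 61.8% (95% Wilson interval 60.0 to 63.6) and 59.2% (57.0 to 61.5) of the family's reads in wild-type replicates 2 and 3. It made up 80.1% (77.7 to 82.3) in wild-type replicate 4, where the null libraries had 71.1% to 79.1%. These intervals cover counting error only.

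Ratios between members within a library do not depend on the scaling. They were taken for the 10 pairs of Irx1 to Irx5, whose lowest count was 22. The ratio of Irx2 to Irx3 was 2.19, 1.56, 2.11 and 2.07 in null replicates 1 to 4 and 2.86, 3.96 and 2.21 in wild-type replicates 2 to 4. It was the 1 ratio of the 10 whose groups did not overlap. The margin was narrow, between null replicate 1 (90 and 41 reads) and wild-type replicate 4 (84 and 38 reads), and counting error was left out. Nothing is read from it, since no share over other pairs of genes was computed. The ratio of Irx4 to Irx5 was 7.56 to 13.2 in the null, 6.43 and 4.99 in wild-type replicates 2 and 3, and 11.4 in wild-type replicate 4. The ratio of Irx1 to Irx2 had a similar mean in both groups, with a mean log2 ratio of -1.73 ± 0.500 in the null (SD, n = 4) and -1.76 ± 0.412 in wild type (SD, n = 3). The other pairs of the IrxA cluster moved more. Null minus wild type was -0.749 for Irx1 to Irx4 and -0.786 for Irx2 to Irx4, with overlap between groups. For pairs across the clusters it ran from -0.573 (Irx2 to Irx3) to 0.556 (Irx4 to Irx5).

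Genes around the clusters were taken in the order of the RefSeq gene table, from 5 genes before to 5 genes after each cluster. Of 23 such genes with a row, 14 were tested, 3 were called lower in the null by edgeR and none higher, and all 3 flanked the IrxA cluster. Over all genes tested, 2.13% were called lower and 4.11% higher. At an unadjusted p under 0.05 in edgeR, 5 neighbours were lower and 1, Fto, was higher. DESeq2 called 3 lower and none higher. The median log2 fold change was -0.63 over the 6 tested IrxA neighbours, 0.27 over the 8 tested IrxB neighbours and 0.02 over all genes tested. The long noncoding RNA 8030423J24Rik, next to Irx1, was at 0.268 ± 0.0822 CPM in null pools and 0.882 ± 0.203 CPM in wild-type pools (SD, n = 4 and 3), or -1.73 as log2 fold change (SE 0.466, edgeR adjusted p = 0.0489). Unlike Irx1, it did not overlap between groups, and wild-type replicate 4 held 0.824 CPM. Its call was lost without any 1 library except null replicate 3 (adjusted p = 0.0851 to 0.229 in the other 6 fits), with the replicate block (0.0683) and with no low-count filter (0.0722). Gm20554, the noncoding gene between Irx1 and Irx2, was not called, with a fold change of -1.604 on the log2 scale (SE 0.575, edgeR adjusted p = 0.113). In wild-type replicate 4 Gm20554 held 0.573 CPM, inside its null range of 0.1395 to 0.693 CPM.

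On the far side of Irx4 lie 2 genes of mitochondrial proteins. Mrpl36, a mitochondrial ribosomal protein gene, stood at 158 ± 11.96 CPM in null pools against 247 ± 2.30 CPM in wild-type pools (SD, n = 4 and 3; log2 fold change -0.67, SE 0.117, edgeR adjusted p = 0.00661). Ndufs6, a subunit gene of respiratory complex I, was 214 ± 17.1 against 320 ± 46.2 CPM (log2 fold change -0.59, SE 0.146, edgeR adjusted p = 0.0353). Mrpl36 lost its call without wild-type replicate 2 (adjusted p = 0.0541). The call of Ndufs6 was lost with null replicate 1 (0.0798), 2 (0.0818) or 4 (0.059) left out, and with wild-type replicate 2 (0.193) or 3 (0.171) left out. Beside the IrxB cluster, Fto, whose introns are known to hold enhancers of Irx3, was not called (log2 fold change 0.64, SE 0.222, edgeR adjusted p = 0.106). Fto and Gm20554 lay outside the rule for named genes and were picked after seeing their values.

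**Figure D3:**
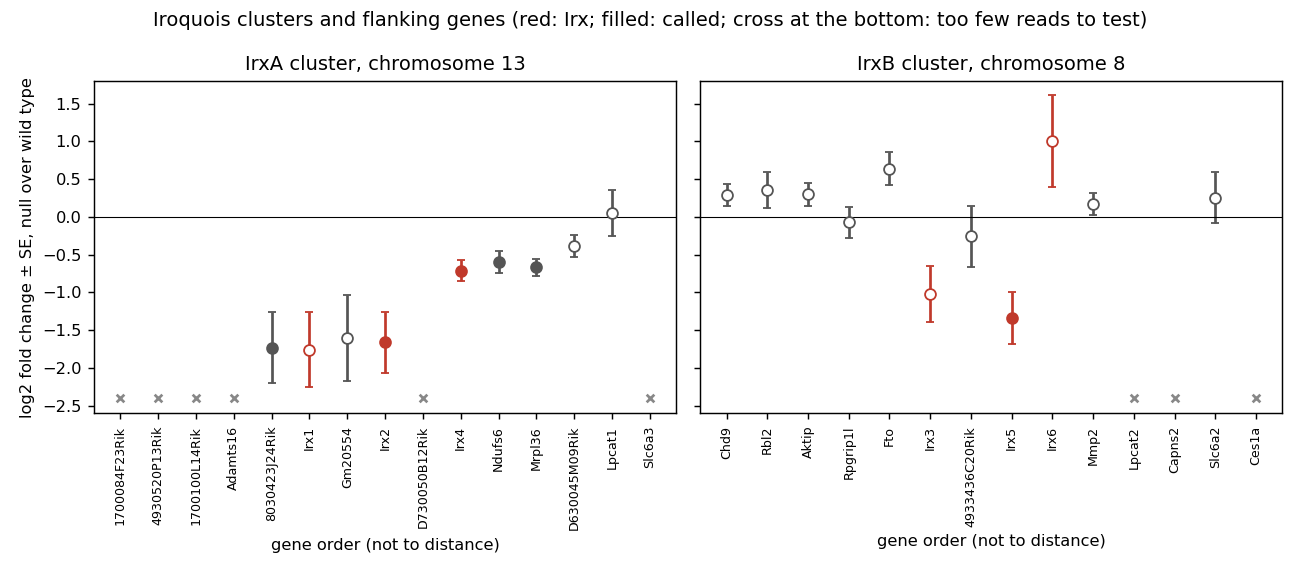
Log2 fold change ± SE (null over wild type) of the Iroquois genes (red) and their neighbours (grey) in gene order, with no scale of distance. Filled points were called in the fit across all genes and crosses mark genes with too few reads to test. In the IrxA panel Irx1, Irx2 and the noncoding genes 8030423J24Rik and Gm20554 lie between -1.757 and -1.604 and Irx4, Ndufs6 and Mrpl36 between -0.71 and -0.59; in the IrxB panel Irx3 and Irx5 lie below and Irx6 above the neighbours.

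The genes most like each called member were found by the root mean square difference of log2 CPM over the 7 libraries, each gene centred on its own mean. For Irx4 they were Pcna (0.058), the sliding clamp of DNA replication, Bola3 (0.066), a mitochondrial iron-sulfur factor, and Polr2i (0.073), an RNA polymerase II subunit, against a median of 0.470 over all genes. Pcna held 189 to 195 CPM in the null, and 316, 318 and 271 CPM in wild-type replicates 2 to 4. For Irx2 they were the carboxypeptidase gene Cpa1 (0.217), the proprotein convertase gene Pcsk6 (0.287) and Irx5 (0.382), with Irx1 and Irx3 next in order, against a median of 1.03. Cpa1 was 0.335 to 0.872 CPM in the null, and 2.81, 2.84 and 1.15 CPM in wild-type replicates 2 to 4. For Irx5 they were Igfbpl1 (0.280), the troponin gene Tnni2 (0.290) and the noncoding gene Snhg3 (0.298), with Irx1 sixth, against a median of 0.833. By this measure Irx4 came in place 273 from Irx2 (0.677) and in place 195 from Irx5 (0.474), both under those medians. From Irx5, Irx2 was in place 41 and Irx3 in place 50. From Irx4, Irx3 came in place 3846 (0.370), Irx5 in 6569 (0.474), Irx2 in 10292 (0.677) and Irx1 in 10537 (0.700). These genes were selected for likeness, so their values are a description.

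**Figure D4:**
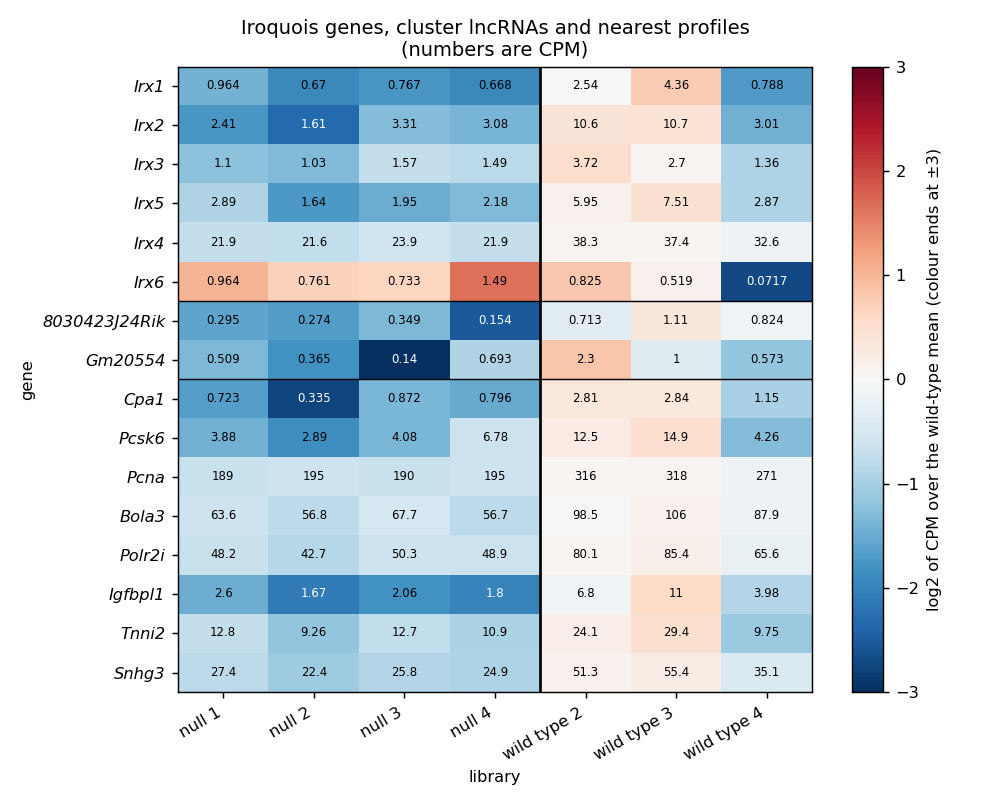
Log2 of CPM over the wild-type mean (colour) with the CPM printed in each cell, for the Iroquois genes, the IrxA noncoding genes and the genes most like Irx2, Irx4 and Irx5, in the 7 libraries. Irx1, Irx2, Irx3, Irx5, Gm20554, Pcsk6 and Tnni2 are blue in wild-type replicate 4 and lie within the null range there. Cpa1 is also blue there but stays above the null range, while Irx4 and Pcna are pale.

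Other genes were compared in the same fit, which called 4.11% of all genes tested higher and 2.13% lower. Of 12 other TALE genes (the Meis, Pbx, Pknox and Tgif genes and Mkx), which encode partners and relatives of homeodomain factors, none was called in either direction by edgeR or DESeq2, and 1, Pbx3, was lower at an unadjusted p under 0.05. Their median log2 fold change was -0.06. Among the more abundant was Meis1, at 124 ± 46.7 CPM in the null and 86.2 ± 12.6 in wild type (SD, n = 4 and 3). Without null replicate 3, Meis1 was called higher and Pbx2 lower. Of 12 factors known to act with IRX proteins or upstream of them in the heart, none was called by edgeR or DESeq2, with Mef2c higher at an unadjusted p under 0.05 and a median of 0.02. Among them the cardiac factor Tbx20 was at 342 ± 33.8 against 333 ± 11.2 CPM and Mef2c at 400 ± 43.5 against 307 ± 19.2 CPM. Nkx2-5, set upstream of Irx4 by earlier work, was 34.6 ± 11.4 CPM in the null and 27.4 ± 2.56 in wild type, or 0.32 as log2 fold change (SE 0.232, edgeR adjusted p = 0.421). Pbx2, Pbx3 and Nkx2-5 were picked after seeing their values.

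Of 13 heart genes tied to IRX factors in earlier work, 2 rose and none fell by edgeR (3 higher and none lower at an unadjusted p under 0.05; 2 and none by DESeq2), with a median log2 fold change of 0.51. Over all genes tested, 4.11% were called higher and 2.13% lower by edgeR, and the median was 0.02. Myh7, a myosin heavy chain, rose from 666 ± 27.4 CPM in wild type to 1178 ± 228 CPM in the null (SD, n = 3 and 4; log2 fold change 0.80, SE 0.152, edgeR adjusted p = 0.0100). The groups did not overlap, with 650 to 698 CPM in wild type and 994 to 1476 CPM in the null. Gja5, the connexin of conduction tissue and atrium that Irx3 is known to regulate, was 31.6 ± 6.34 CPM in wild type and 66.9 ± 27.1 CPM in the null (log2 fold change 1.05, SE 0.280, edgeR adjusted p = 0.0471), with overlap between groups. Myh7 lost its call with wild-type replicate 2 (0.0614) or 3 (0.058) left out. Gja5 lost it without any 1 library except null replicate 3 (0.0683 to 0.133 in the other 6 fits), and with upper-quartile scaling (0.0506). The potassium channel gene Kcnd2, which Irx5 is known to repress, was at 1.31 ± 0.505 CPM in the null and 0.857 ± 0.540 in wild type (log2 fold change 0.60, SE 0.502, edgeR adjusted p = 0.498), and was picked after seeing its value.

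Library facts and markers bear on these values. The libraries held 27905601 to 44860753 reads in genes, and Hand2 was at 0.188 to 0.792 CPM in the null and 42.3 to 47.3 CPM in wild type, which checks the labels. Markers of the canal muscle were present, with the 9 genes of that list summing to 316 to 403 CPM in the null and 281 to 449 CPM in wild type, highest in wild-type replicate 4 (449 CPM). Single genes of the list differed. Among wild-type libraries, Bmp2, Rspo3, Tbx3, Msx2, Gjc1 and Cacna1g were highest in replicate 4, whereas Tbx2, Bmp4 and Hcn4 were lowest there. Chamber muscle, where Irx4 is known to be expressed, summed to 6487 to 7162 CPM in the null and 5734 to 7338 CPM in wild type, lowest in wild-type replicate 4. Of its 16 markers 2 were called higher (Myh7 and Gja5, described above) and 3 lower, which were Myl2 (log2 fold change -0.86), Pln (-1.69) and Hopx (-0.80). The ventricular light chain gene Myl2 lost its call without wild-type replicate 2 (-0.87) or 3 (-0.67), and Hopx without wild-type replicate 2 (-0.76). General heart muscle genes summed to 33370 to 39660 against 32730 to 37160 CPM, with none of 9 called by edgeR, while 3 passed an unadjusted p under 0.05 and 1 was called by DESeq2. Cushion mesenchyme markers summed to 65.6 to 88.9 CPM in the null and to 155, 117 and 268 CPM in wild-type replicates 2 to 4, with 6 of 8 called lower, first among them Twist1, Postn, Sox9 and Snai1. Endocardial markers summed to 501 to 567 CPM in the null against 343 to 403 CPM in wild type, with 3 of 9 called higher, Tie1, Kdr and Pecam1. Beside the calls in these marker lists and those that follow, edgeR called 2.13% of all genes tested lower and 4.11% higher.

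Neural tube, foregut and ectoderm, which also transcribe Irx genes, were checked by their markers. The neural list summed to 6.70 to 8.84 CPM in the null and to 18.6, 13.5 and 43.9 CPM in wild-type replicates 2 to 4. The neuronal tubulin gene Tubb3 supplied 4.26 to 5.33 CPM of this in the null and 16.8, 12 and 38.7 CPM in those wild-type libraries, and of the 6 genes tested it was called lower in the null. Pax6 went the other way, with 0.670 to 3.03 CPM in the null and 0.0692 to 0.717 CPM in the wild-type pools (log2 fold change 2.00, SE 0.675, edgeR adjusted p = 0.0972), and was called higher by DESeq2. Olig2 was at 0 in all libraries and 3 of the 10 genes were under 3 reads in each. Foregut markers summed to 6.21 to 18.9 CPM in the null and 4.77 to 10.2 CPM in wild type, with 1 of 5 tested higher (Sox17, also an endothelial gene). Surface ectoderm summed to 2.06 to 4.24 against 1.70 to 4.15 CPM, and intermediate mesoderm to 40.7 to 61.7 against 33.8 to 42.8 CPM, with no gene called in either list. The edgeR fit gave 0 and 1 genes at an unadjusted p under 0.05 there, and DESeq2 called none. Nearly all of the intermediate mesoderm sum came from Wt1 (mean 30.6 CPM in the null, 20.05 in wild type) and Gata3 (21.1 and 16.6). Wt1 is also on the epicardial list, and Gata3 is among the factors known to act with IRX proteins. Pax2, Pax8, Lhx1 and Emx2 had group means of at most 0.494 CPM, so the sum does not measure this tissue. Epicardial markers summed to 63.5 to 80.2 against 48.4 to 68.6 CPM with none called (2 at an unadjusted p under 0.05, none by DESeq2). Second heart field markers summed to 25.1 to 63.2 against 11.8 to 23.6 CPM, with Isl1 and Osr1 higher. Blood markers summed to 5602 to 14510 against 9329 to 22040 CPM, highest in wild-type replicate 4, with none called by edgeR, 2 at an unadjusted p under 0.05 and 1 called by DESeq2. None of the canal muscle markers was called by edgeR or DESeq2, and 1 passed an unadjusted p under 0.05. Of the called markers Kdr, Tie1, Pln, Tubb3 and Twist1 kept their calls under all 14 alternatives, and the others lost theirs under 1 to 8 of them. The part of chamber muscle, canal muscle, mesenchyme, neural or blood content in the Iroquois values was not tested.

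Promoter windows of 300 bases were in the RefSeq table (GRCm38.p6) for Irx2, Irx3 and Irx4. HAND2 is a basic helix-loop-helix factor, a class that binds E-boxes. The E-box CANNTG occurred once in the windows of Irx2 and Irx4 and not in that of Irx3, against 72.3% of 32851 windows with at least 1. The E-box CATCTG, searched on both strands and a subset of the first motif, was found in the Irx2 window only, against 17.2% of all windows. A match in these windows is a description of letters and not of binding.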

How the data were processed

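The deposited files give whole read counts per gene symbol for each library, which the authors made from single-end reads of 50 nt on mm9 with TopHat2 2.0.13, SAMtools and HTSeq, per the submitters' processing notes. The labels' protocols state ribosomal RNA depletion, 8 PCR cycles and unstranded libraries. No annotation or counting option is given in the sources used here. Between 27905601 and 44860753 reads fell in genes, so 3 reads equal 0.0669 to 0.1075 CPM. The unassigned rows were left out of library sizes: reads in no feature were 7.31% to 14.2%, ambiguous reads 1.46% to 1.69% and reads with several alignments 9.08% to 13.8% of the total. Null replicate 2 alone had 14.2% of reads in no feature, and every other library had at most 10.0%.

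Counts were fitted with edgeR 4.0.16 (R 4.3.3) by the quasi-likelihood F test, with TMM scaling, a low-count filter at 10 reads, genotype as the only term and all 7 libraries, and p-values were Benjamini-Hochberg adjusted over the 14290 genes tested, with 0.05 as the threshold. The fit was tested on simulated data. The standard error is the fold change divided by the root of F. Alternatives were other scalings, filters, DESeq2 1.42.0, the replicate number as a block, and libraries left out. Exon lengths come from GENCODE M21 (GRCm38); coordinates are not printed, since the counts were made on mm9. Symbols were placed in gene order through the RefSeq table, 20683 directly and 2310 through older names. Members and gene lists were chosen with earlier results of these data known. Genes were named by a rule: the members, Hand2, up to 4 called genes with the smallest p in each list or the 2 most abundant where none was called, called neighbours, and the 3 genes most like each called member, predicted genes left out. For several marker lists only sums are given. One gene that the rule names is not reported here.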

Additional observations from a re-analysis of the deposited data

Results flagged for a closer look

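Irx4 in null replicate 3, at 23.9 CPM, stood above the other 3 null libraries by a gap that was 0.882 of the group's whole range, past Dixon's 95% critical value for 4 values. Chance alone does this in about 1 in 20 groups.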

How the results depend on the processing

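No fold change of an Iroquois gene changed sign. Apart from libraries left out, the fold changes spanned -1.78 to -1.64 for Irx1, -1.68 to -1.51 for Irx2, -1.04 to -0.88 for Irx3, -0.73 to -0.71 for Irx4, -1.44 to -1.33 for Irx5 and 0.98 to 1.14 for Irx6. The number of members called lower, 3 with all libraries, was 0 to 4 with 1 library left out, and 0 without wild-type replicate 2 or without wild-type replicate 3. Irx1 was called as a further member by DESeq2, without the low-count filter and without wild-type replicate 4. With both null replicate 2 and wild-type replicate 4 left out, Irx1, Irx2 and Irx5 were called lower and Irx4 was not. With 1 library left out, the IRX-linked heart genes called higher (2 with all libraries) numbered 0 to 3, the neighbours called lower (3) 0 to 3 and higher (0) 0 to 1, and the other TALE genes called higher (0) 0 to 1 and lower (0) 0 to 1. IRX-linked genes called higher were 1 with upper-quartile scaling. With both null replicate 2 and wild-type replicate 4 left out, IRX-linked genes called higher were 0 and neighbours called lower 1. The cause was not tested. Over all genes, 587 higher and 305 lower calls became 992 and 769 with DESeq2. With null replicate 1 left out they were 284 and 90, with null replicate 2 left out 389 and 150, and with null replicate 3 left out 946 and 652. Leaving out wild-type replicate 2 gave 210 and 46, and leaving out wild-type replicate 3 gave 246 and 68. With both null replicate 2 and wild-type replicate 4 left out they were 298 and 123.

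Nothing in the labels says that replicate numbers pair the samples, and the correlations do not settle it. Deviations of same-numbered libraries correlated at -0.073, 0.257 and 0.166 for replicates 2, 3 and 4. Libraries of unlike number ran from -0.234 to 0.137, the highest being null replicate 2 with wild-type replicate 4. With the replicate block, 2 members (Irx4 and Irx5) were called lower, 4 IRX-linked genes and 1 neighbour higher, 2 neighbours and 1 other TALE gene lower, and 814 higher and 565 lower over all genes.

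Irx1 and Irx6 drop out under the stricter low-count filter of 50 reads in 3 libraries. Irx1, Irx3 and Irx6 rest on as few as 22, 34 and 2 reads in a library, which limits their precision.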
